A study of Mus musculus with 18 samples.

Results

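Liver gene expression was compared between mice fed a diet with 1% quercetin, the higher of the study's 2 quercetin levels, and mice fed the same diet without it. The comparison used 12 of the 18 arrays of the study, chosen by their diet labels: 6 control arrays and 6 at 1%. Each array held the RNA of 1 mouse. The other 6 arrays came from a diet with 0.05% quercetin, and they entered the fit and are given beside the result where they bear on it. All mice were male and of the C57BL/6J strain, written C56BL/6J in the strain label. They were about 5 weeks old when the purified AIN93G diet began and were killed under pentobarbital anesthesia after 20 weeks of it. Each diet was given to 12 mice kept 3 to a cage, so 6 of 12 mice per diet had an array. The cage of each mouse is not in the labels, and p-values measure the spread between these mice only. The dark period fell in the daytime, and the labels do not give the hour of death. The RNA came from whole liver, in which fewer cells of a type and less RNA per cell cannot be told apart.

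Quercetin is a plant flavonol that the gut and liver conjugate to glucuronide and sulfate forms. Electrophilic compounds release the transcription factor NRF2 from its inhibitor KEAP1, and NRF2 then drives genes for glutathione synthesis, quinone reduction and export of conjugates. The nuclear receptor PPARA turns on mitochondrial and peroxisomal fatty acid oxidation in the fasted liver. SREBP1 and ChREBP drive fatty acid synthesis in the fed liver, and the oxidation and synthesis programs are regulated in opposite directions between fasting and feeding. The comparison addressed which liver genes differ after long feeding of the higher dose.

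Levels are given as log2(intensity + 16) after each array was shifted to a common median over the tested genes. A difference is always the mean at 1% minus the mean in controls on that scale, with its standard error, and it understates the fold of dim genes. Before the shift, the median of the tested genes lay between 6.85 and 7.20 over the control arrays and between 6.73 and 7.24 over those at 1%. Correlations between arrays lay between 0.960 and 0.989, and no 2 arrays held identical values. The number of arrays limits the precision: the median standard error of a difference was 0.131.

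The library of 1% replicate 1 stood apart from the rest. Before the median shift its array had the lowest median of the 12 (6.73), and its shift of 0.262 was the largest upward one among them. Its median correlation with the arrays of its own group, 0.971, was the lowest of all arrays. Whether the shift or the quality of the array bears on its values was not tested. It held the highest value of the 12 arrays in 16.8% of the tested genes and the lowest in 12.4%, against 4.90% to 11.7% and 5.47% to 11.4% in the other 11. Srxn1, which encodes the sulfiredoxin that repairs oxidised peroxiredoxins, measured 12.70 there and 7.63 to 8.04 in the other 5 mice at 1%, a 28.2-fold gap to their median. Hmox1, the heme oxygenase, measured 10.95 there against 7.20 to 7.64 in those 5. Genes singled out after their values were seen showed the same library apart from them. Myc measured 9.22 against 5.89 to 7.71, and Cdkn1a, a cell cycle inhibitor, 9.97 against 6.96 to 7.92. Pck1, the cytosolic enzyme that commits carbon to gluconeogenesis, measured 9.997 there against 12.19 to 12.54. Genes of the naming rule that this library moved by over 1.5 times are given with and without it, or with their range when any 1 array was left out.

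Of 12885 genes tested, 1 passed the adjusted threshold of 0.05 in limma, which is 0.00776% of them. That gene was Tead1, a DNA-binding partner of the YAP and TAZ coactivators at the end of the Hippo pathway. Tead1 measured 6.42 to 6.85 (median 6.57) in the 6 controls and 7.06 to 7.46 (median 7.17) in the 6 mice at 1%. The groups did not overlap. Its level rose by 0.61 ± 0.090, a 1.53-fold difference, with an adjusted p of 0.0225. The mice at 0.05% lay 0.47 above the controls. The chosen probe set for Tead1 was its brightest, and its other probe set gave 0.0027. The call was lost when any 1 of control replicates 1, 2, 4, 5 and 6 or 1% replicates 2 and 3 was left out, with adjusted p-values up to 0.0975, while the difference lay between 0.56 and 0.66 over the 12 fits that left out 1 array. It was also lost on the values as deposited (adjusted p = 0.337), without the filter on dim genes (0.0964) and with only the 12 arrays in the fit (0.125), and the mean of its probe sets gave a difference of 0.30 (adjusted p = 0.397).

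At an unadjusted p under 0.05 in limma, 499 genes were higher at 1% (3.87% of those tested) and 600 were lower (4.66%), where 644 of either kind would fall below that p with no difference. The split depended on the array scaling: 45.4% of the 1099 genes were higher after the median shift and 48.9% of 1135 after quantile normalization, but 21.8% of 715 on the values as deposited. The 6 mice at 1% all lay above the 6 controls for 30 genes (0.233%) and all below them for 32 (0.248%). As deposited, 3 genes lay wholly above and 17 wholly below. Differences of 1 or more on the log2 scale were found for 19 genes upward and 19 downward (0.147% each). Most genes differed little: the median difference was -0.0064, and the tenth and ninetieth percentiles were -0.219 and 0.208.

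**Figure D1:**
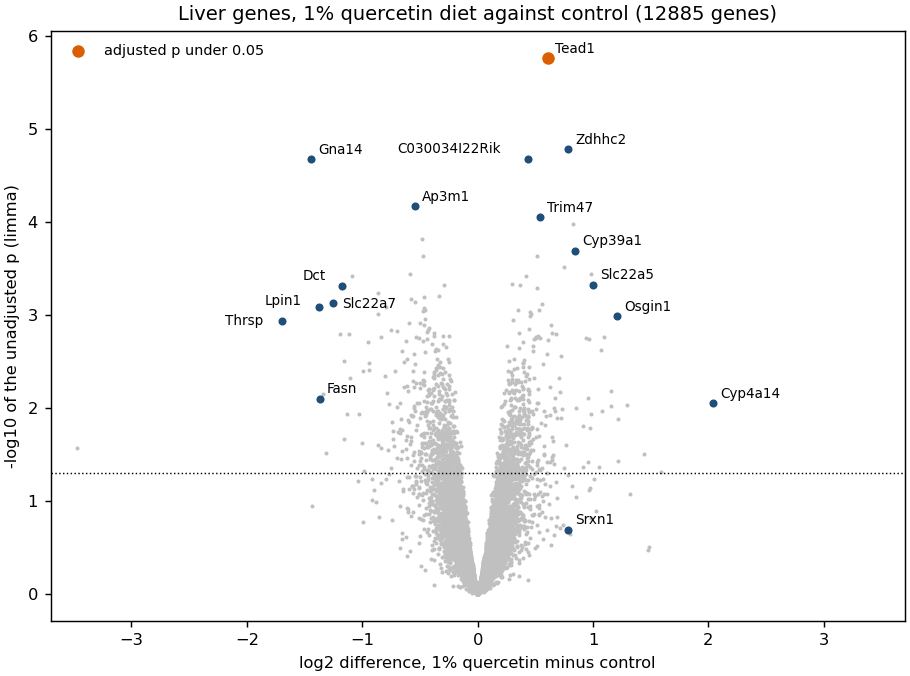
Each point is 1 of the 12885 tested genes, with the log2 difference between the 1% and control means on the x axis and -log10 of limma's unadjusted p on the y axis; the dotted line marks an unadjusted p of 0.05. Tead1 (orange) is the 1 gene past the adjusted threshold, and the labelled blue points are genes named in the text.

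The genes next to Tead1 by p did not pass the threshold. Zdhhc2, a palmitoyltransferase, measured 5.52 to 6.15 (median 5.86) in controls and 6.26 to 6.93 (median 6.59) at 1%, a difference of 0.78 ± 0.14 (adjusted p = 0.0689). All 6 mice at 1% lay above every control. C030034I22Rik, a RIKEN cDNA gene, measured 4.85 to 5.07 (median 4.96) and 5.19 to 5.59 (median 5.38), also without overlap, with the same adjusted p of 0.0689. This gene lay near the filter cut of 4.69. Under other processing its difference of 0.43 ran from 0.20 to 0.72, with adjusted p-values in limma up to 0.772. Gna14, which encodes a Gq-class G protein alpha subunit, measured 6.34 to 8.06 (median 7.10) in controls and 5.197 to 6.43 (median 5.68) at 1%. In Gna14, 5 of 6 mice at 1% lay below all controls, and the difference was -1.44 ± 0.26 (adjusted p = 0.0689); its other 2 probe sets gave -1.03 and -0.72. Without control replicate 3, Gna14 and Frat1 passed beside Tead1 (both at an adjusted p of 0.0199), without 1% replicate 1 Zdhhc2 passed (0.0469), and without 1% replicate 6 Gna14 passed (0.0384).

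The 15 higher genes with the smallest p included Tead1, Zdhhc2 and C030034I22Rik. Slc22a5, the plasma membrane carnitine transporter that supplies fatty acid oxidation, was also among them and measured 7.01 to 8.44 (median 8.07) in controls and 8.55 to 9.48 (median 8.85) at 1%. The groups did not overlap, and the difference was 1.00 ± 0.24 (adjusted p = 0.298). Cyp39a1, an oxysterol hydroxylase of bile acid synthesis, measured 8.498 to 9.13 (median 8.90) and 9.47 to 10.03 (median 9.65), again without overlap (0.85 ± 0.18, adjusted p = 0.273). Csad, which makes the taurine precursor hypotaurine, measured 10.08 to 11.45 (median 11.002) and 11.24 to 12.09 (median 11.89). In Csad, 5 of 6 mice at 1% lay above all controls (0.99 ± 0.23, adjusted p = 0.298). Retsat, the retinol saturase, differed by 0.75 ± 0.17, with 5 of 6 mice above all controls. The phospholipid phosphatase Plpp2 differed by 0.51 ± 0.12 without overlap. Frat1, a GSK3-binding protein of Wnt signalling, differed by 0.82 ± 0.17, with 3 of 6 above all controls. Trim47, a ubiquitin ligase, Pigl, an enzyme of GPI anchor synthesis, Oga, the O-GlcNAc hydrolase, and Magef1, App and Pogk had differences from 0.30 to 0.56. The other probe sets gave 0.036 for Pigl, where the chosen one gave 0.51, and 0.22, 0.20, 0.60, 0.24 and 0.15 for Oga, where the chosen one gave 0.42.

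Among the 15 lower genes, Slc22a7, the hepatic organic anion transporter OAT2, measured 8.83 to 10.75 (median 9.88) in controls and 7.73 to 9.39 (median 8.66) at 1%. Of the 6 mice at 1%, 4 lay below all controls (-1.26 ± 0.31, 0.419-fold, adjusted p = 0.315). Dct, a melanin synthesis enzyme, measured 7.46 to 8.46 (median 8.05) and 6.01 to 7.45 (median 6.96), with no overlap (-1.18 ± 0.28, adjusted p = 0.298). Ap3m1, a subunit of the AP-3 vesicle adaptor, measured 8.98 to 9.54 (median 9.32) and 8.45 to 8.84 (median 8.78), with no overlap (-0.54 ± 0.11, adjusted p = 0.174). The other 3 probe sets of Ap3m1 gave -0.50, -0.35 and -0.64. Mras, a RAS-like GTPase, also showed no overlap (-0.86 ± 0.21), with -0.35 from its other probe set. Slc25a44, the mitochondrial carrier of branched-chain amino acids, differed by -0.48 ± 0.11 without overlap, and its other 2 probe sets gave -0.40 and 0.013. Tyro3, a receptor tyrosine kinase for GAS6 and protein S, differed by -0.58 ± 0.13, with 5 of 6 below all controls. The remaining 7 beside Gna14 and Lpin1 were 3000002C10Rik, 9030619P08Rik, Snx9, Wbp1, Atxn7l3, 1700001L05Rik and Trim7, from -1.09 to -0.29. Among these, the other probe sets gave -0.080 for Snx9 (-0.29 in the chosen one) and -0.089 for Trim7 (-0.54).

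**Figure D2:**
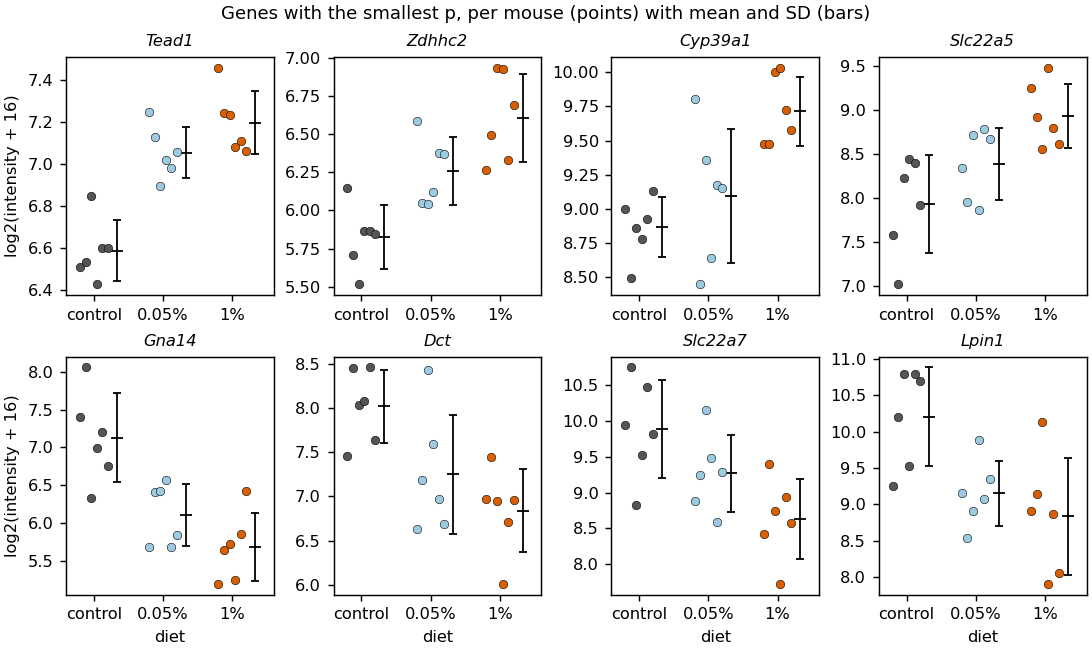
Each point is the log2(intensity + 16) of 1 mouse for 8 of the genes with the smallest p, by diet (6 mice each); bars are the mean and SD. In Tead1, Zdhhc2, Cyp39a1, Slc22a5 and Dct the control and 1% mice do not overlap, and the 0.05% mice are drawn for comparison.

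NRF2 targets were higher more often than not, and much of their size came from 1 mouse. Of 41 listed targets 36 were tested, of which 26 were above 0 and 10 below, against 48.3% and 51.7% of all tested genes. At an unadjusted p under 0.05, 6 were higher (background 3.87%) and 0 lower (4.66%), and 0 passed the adjusted threshold. The list median was 0.23, against -0.0064 over all genes. Without 1% replicate 1 it was 0.060, with 23 above 0 and 13 below. That library held the highest of the 12 values for 20 of the 36 targets (55.6%). The mean deviation of the list was 0.81 in that mouse and between -0.14 and 0.097 in the other 5 at 1%; the controls lay between -0.28 and 0.16.

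Among the quinone, thioredoxin and heme enzymes, 11 of 13 were above 0. Osgin1, an oxidative stress-induced growth inhibitor, had the smallest p of the targets: it measured 9.40 to 10.34 (median 9.86) in controls and 10.23 to 12.29 (median 11.05) at 1%. Of the 6 mice at 1%, 5 lay above all controls, and the difference was 1.21 ± 0.31 (adjusted p = 0.315). It was 0.97 without 1% replicate 1. Blvrb, a biliverdin and flavin reductase, differed by 0.36 ± 0.13, and by 0.27 without that mouse. The differences of Srxn1 (0.78), Hmox1 (0.69) and Txnrd1 (0.42), the cytosolic thioredoxin reductase, came to -0.022, 0.099 and 0.16 without it. The other 2 probe sets of Txnrd1 gave 0.090 and 0.53. Nqo1, the NADPH quinone reductase often used as the marker of this response, measured 5.59 to 6.57 (median 5.96) in controls and 5.96 to 6.23 (median 6.10) at 1%. These ranges overlapped fully, with a difference of 0.082 ± 0.16 (adjusted p = 0.924), or -0.0052 to 0.19 with 1 array left out.

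Of the 13 genes of glutathione synthesis and transfer, 11 were above 0. Gsta4, a glutathione transferase for lipid aldehydes, measured 9.73 to 10.72 (median 10.03) in controls and 10.26 to 11.13 (median 10.61) at 1% (0.53 ± 0.21, adjusted p = 0.489), and 0.43 without 1% replicate 1. Gclc and Gclm, the catalytic and modifier subunits of the rate-limiting enzyme of glutathione synthesis, differed by 0.41 ± 0.37 and 0.27 ± 0.17. Gclc spread from 10.51 to 13.53 at 1%, with 2 mice above and 2 below all controls, and its difference was 0.055 without 1% replicate 1 and 0.66 without 1% replicate 6. In NADPH supply and transport, 4 of 10 were above 0. Abcc4, an exporter of conjugates, differed by 0.44 ± 0.16, and by 0.43 without that mouse. Nfe2l2, the gene for NRF2 itself and outside the naming rule, differed by -0.12.

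**Figure D3:**
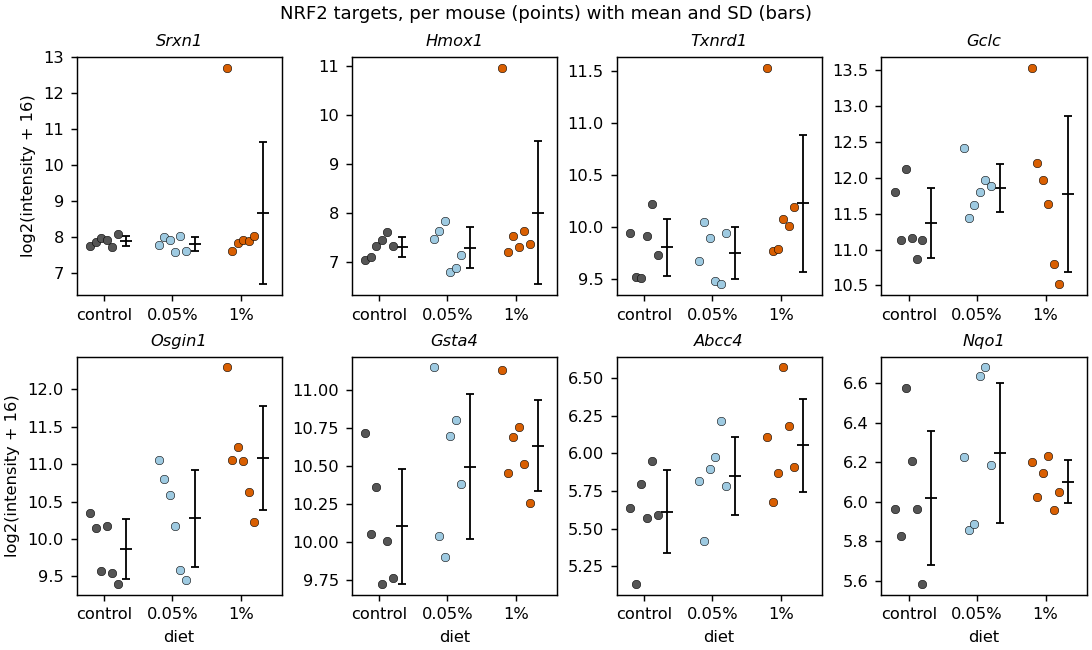
Each point is the log2(intensity + 16) of 1 mouse for 8 NRF2 targets, by diet (6 mice each); bars are the mean and SD. In Srxn1, Hmox1, Txnrd1 and Gclc 1 mouse at 1% (replicate 1) stands above the other 5, while in Osgin1 most of the mice at 1% lie above the controls.

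NRF2 binds antioxidant response elements, and the letters TGACNNNGC were searched on both strands in the 250 bases before each gene's start in RefSeq's promoter sequences (GRCm38.p6). They occurred in 11.5% of the 27025 genes in that table and in 10 of the 36 listed NRF2 targets found there. Of 31 tested targets in the table, 8 held a match: Txnrd1, Gclm, Gsta3, Mgst1, Ugdh, Abcc2, Abcc4 and Nfe2l2. A match is a description of letters and not a measured binding site. The 4 of these genes with the smallest p are shown, 5′ to 3′ on the gene's strand, with the matched letters in capitals; in Ugdh, Txnrd1 and Gclm the match lies on the opposite strand, so its reverse complement is printed. Ugdh, which makes the sugar donor for glucuronides, held 2 matches, of which 1 is shown, and Abcc4 is shown at 1 of its 2 listed starts.
Abcc4, chr14:118676932-118676974 (minus strand): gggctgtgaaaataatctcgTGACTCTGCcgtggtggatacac
Ugdh, chr5:65435908-65435956 (minus strand): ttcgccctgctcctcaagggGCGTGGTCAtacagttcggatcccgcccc
Txnrd1, chr10:82859094-82859142 (plus strand): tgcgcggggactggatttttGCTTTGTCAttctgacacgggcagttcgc
Gclm, chr3:122245403-122245451 (plus strand): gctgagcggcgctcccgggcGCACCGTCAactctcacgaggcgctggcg
These 4 genes differed between the diets by 0.44 (Abcc4), 0.33 (Ugdh), 0.42 (Txnrd1) and 0.27 (Gclm), and by 0.43, 0.13, 0.16 and 0.15 without 1% replicate 1.

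PPARA targets and fatty acid oxidation genes were mostly higher at 1%. Of 50 listed genes 44 were tested, of which 39 were above 0 and 5 below. At an unadjusted p under 0.05, 9 were higher (background 3.87%) and 0 lower (4.66%), and 0 passed the adjusted threshold. These shares over all tested genes, with 48.3% above 0 and 51.7% below, are the background of every list below. The median of the PPARA list was 0.18, and it lay between 0.14 and 0.26 when any 1 array was left out. Among the mitochondrial genes 14 of 15 were above 0, with a median of 0.14, and among the peroxisomal ones 10 of 11, with a median of 0.19. Eci2, an isomerase for unsaturated fatty acids, measured 9.95 to 10.61 (median 10.45) in controls and 10.53 to 10.82 (median 10.67) at 1%. Of the 6 mice at 1%, 4 lay above all controls (0.36 ± 0.12, adjusted p = 0.412). Cpt1a, the gate of mitochondrial fatty acid entry, differed by 0.14 ± 0.12 (0.061 without control replicate 1).

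The larger differences were in omega oxidation, acyl-CoA thioesterases and secreted factors. Cyp4a14, a fatty acid omega-hydroxylase, measured 8.37 to 12.44 (median 9.70) in controls and 11.37 to 12.61 (median 12.07) at 1%. The highest control lay within the 1% range, and the difference was 2.04 ± 0.70 (4.11-fold, adjusted p = 0.431). The thioesterases Acot1 and Acot2 differed by 1.16 ± 0.40 and 1.09 ± 0.30; a dimmer Acot2 probe set gave 0.050. Angptl4, a secreted inhibitor of lipoprotein lipase, measured 8.24 to 10.54 (median 9.80) and 10.15 to 10.79 (median 10.37) (0.92 ± 0.34, adjusted p = 0.481), and its other probe set gave 0.15. Fgf21, a fasting hormone of the liver singled out after its value was seen, differed by 1.44 ± 0.62, and Pdk4, which restrains glucose oxidation, by 0.69 ± 0.39. Ppara itself measured 9.31 to 10.24 (median 9.77) in controls and 9.10 to 10.05 (median 9.91) at 1%, a difference of 0.0092, while at 0.05% it lay 0.78 above the controls. Its sign turned to -0.042 as deposited, it ran from -0.076 to 0.14 with 1 array left out, and its other 2 probe sets gave -0.19 and -0.022. Control replicate 3 carried a list mean of 0.49, above every mouse at 1%, and the other 5 controls lay between -0.39 and -0.21. Among the mice at 1%, replicates 6 and 5 were lowest, at -0.23 and -0.011. In the promoter windows, the consensus direct repeat with a 1-base spacer, to which PPARA and RXR bind, occurred on either strand in 0.0407% of all genes and in 0 of the 37 listed genes in the table, which says only that these letters are not there.

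Genes of fatty acid and triglyceride synthesis were mostly lower at 1%. Of 33 listed genes 32 were tested, of which 28 were below 0 and 4 above, and 10 lower and 0 higher genes had an unadjusted p under 0.05. Of these, 0 passed the adjusted threshold. The list median was -0.32, and it lay between -0.39 and -0.21 when any 1 array was left out, the weakest without control replicate 3. All 14 fatty acid synthesis enzymes were below 0 (median -0.40), as were 7 of 8 regulators (median -0.71) and 7 of 10 triglyceride assembly genes (median -0.18).

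Lpin1, a phosphatidate phosphatase of triglyceride synthesis that also acts as a coactivator, had the smallest p of the list. It measured 9.26 to 10.79 (median 10.45) in controls and 7.91 to 10.13 (median 8.89) at 1%. Of the 6 mice at 1%, 5 lay below all controls (-1.37 ± 0.34, 0.386-fold, adjusted p = 0.315). Thrsp, the Spot14 protein that promotes lipogenesis, measured 10.43 to 13.30 (median 12.18) and 9.25 to 11.36 (median 10.48), with 3 of 6 below all controls (-1.69 ± 0.44, adjusted p = 0.315). Fasn, the fatty acid synthase, measured 9.72 to 12.65 (median 11.44) and 9.50 to 10.30 (median 9.89) (-1.37 ± 0.46, adjusted p = 0.428), and only 1 mouse lay below all controls. Dgat2, which adds the last acyl chain of triglyceride, measured 11.15 to 11.89 (median 11.39) and 10.79 to 11.23 (median 11.04), with 5 of 6 below (-0.44 ± 0.12, adjusted p = 0.315). Srebf1, which encodes SREBP1, differed by -1.04 ± 0.52 and by -0.66 without control replicate 2. Acaca, an acetyl-CoA carboxylase, differed by -0.45 ± 0.24, with -0.045 from a dimmer probe set. Scd1, the main hepatic desaturase, differed by -0.12 ± 0.086 in its brightest probe set, which measured 13.16 to 13.65 over the 12 mice, and by -0.82 in another; the first was -0.068 without 1% replicate 4.

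The controls spread more than the mice at 1% for this list. The mean deviation of its members lay between -0.35 and 0.70 in the controls (SD 0.42) and between -0.45 and -0.11 at 1% (SD 0.12). The median SD of its genes was 0.45 in controls and 0.26 at 1%, whereas over all tested genes it was 0.216 and 0.222, and 48.4% of genes had the larger SD in controls. Control replicates 1, 2 and 3 were the 3 highest of the 12 mice for the list, and control replicate 4 lay below 5 of the 6 mice at 1%. In the promoter windows, the sterol response element letters TCACNCCAC occurred in 1.22% of all genes and in 2 of 27 listed genes in the table; among the tested members only Mlxipl, which encodes ChREBP, held them, and it, named for that match, differed by -0.11.

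**Figure D4:**
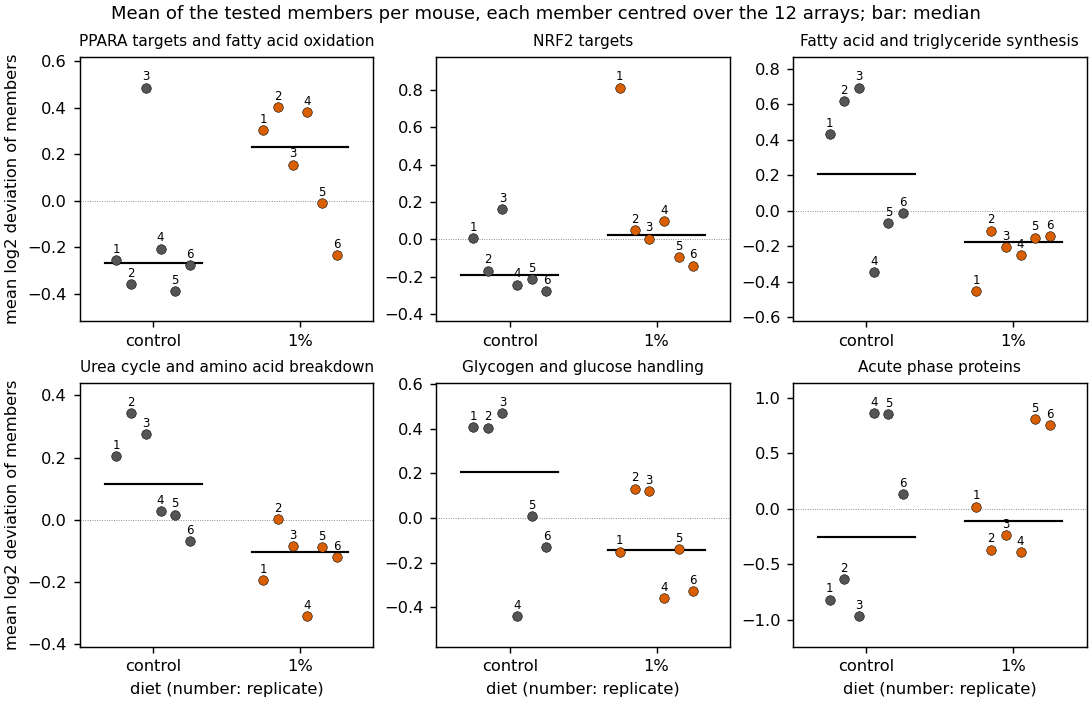
Each point is the mean log2 deviation of a list's tested members in 1 mouse, with each member centred over the 12 arrays; numbers give the replicate, bars the median of 6. The NRF2 panel shows 1% replicate 1 at 0.81, the lipogenic panel the wider spread of the controls, and the urea and amino acid panel 5 of 6 mice at 1% below all controls.

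Lipid droplet and lipolysis genes were above 0 in 11 of 17, with 4 higher and 0 lower at an unadjusted p under 0.05 and a median of 0.12 (0.078 without control replicate 2, 0.056 without 1% replicate 2). Plin2, the main droplet coat protein of hepatocytes and itself a PPARA target, measured 11.85 to 12.39 (median 12.18) in controls and 12.27 or more (median 12.54) at 1%, with 4 of 6 above all controls (0.39 ± 0.14, adjusted p = 0.439). Fitm2, a protein of droplet budding, differed by 0.48 ± 0.17 with 5 of 6 above all controls. Pnpla2, the triglyceride lipase ATGL, differed by 0.25 ± 0.12 (-0.025 in its other probe set), and Hilpda, an inhibitor of that lipase, by 0.32 ± 0.15.

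Urea cycle and amino acid breakdown genes lay below 0 in 23 of 23 tested, of 27 listed. At an unadjusted p under 0.05, 10 were lower and 0 higher, 0 passed the adjusted threshold, and the median was -0.18. It stayed between -0.22 and -0.15 when any 1 array was left out. After quantile normalization it was -0.13, with 22 of 23 below 0, and as deposited it was -0.23. Tat, which begins tyrosine breakdown, measured 11.36 to 12.53 (median 12.15) in controls and 9.84 to 11.83 (median 10.80) at 1%, with 4 of 6 below all controls (-1.11 ± 0.30, adjusted p = 0.315). Prodh, the proline dehydrogenase, differed by -0.56 ± 0.18 with 4 of 6 below. Ass1, which joins citrulline to aspartate in the urea cycle, measured 5.82 to 7.18 (median 6.43) and 5.02 to 6.42 (median 5.62) (-0.74 ± 0.27, adjusted p = 0.462), while the mice at 0.05% lay 0.42 above the controls. Hgd, which opens the homogentisate ring, differed by -0.25 ± 0.084, and by -0.64 in its other probe set. The mean deviation of the list lay between -0.070 and 0.34 in controls and between -0.31 and 0.0024 at 1%, and 5 of the 6 mice at 1% lay below all controls.

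Glycogen and glucose handling genes were below 0 in 11 of 12 (3 lower, 0 higher at an unadjusted p under 0.05), with a median of -0.23, which was -0.36 without control replicate 4. Ppp1r3b, which targets a phosphatase to glycogen, measured 10.01 to 12.13 (median 10.85) in controls and 9.41 to 10.76 (median 10.17) at 1% (-0.83 ± 0.35, adjusted p = 0.519). Khk, the fructokinase, differed by -0.36 ± 0.15, Pygl, the liver glycogen phosphorylase, by -0.25 ± 0.11, and Ppp1r3g, another glycogen-targeting subunit, by -0.79 ± 0.39. Gluconeogenesis and fasting response genes were below 0 in 12 of 16 (4 lower, 1 higher), with a median of -0.11; it was -0.16, -0.17 and -0.18 without control replicates 4, 5 and 6. Beside Tat, the fasting-linked factor Klf15 differed by -0.78 ± 0.26 and the aminotransferase Got1 by -0.62 ± 0.26. Gadd45b, a stress-response gene, went the other way: it measured 4.58 to 6.22 (median 5.07) in controls and 5.67 to 8.42 (median 6.36) at 1%, with 4 of 6 above all controls (1.29 ± 0.45, adjusted p = 0.439), and 0.92 without 1% replicate 1. The other 2 Gadd45b probe sets gave -0.021 and 0.80. Pck1 differed by -0.36 ± 0.33, and by 0.033 without 1% replicate 1; its other 2 probe sets gave -0.36 and 0.0055.

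**Figure D5:**
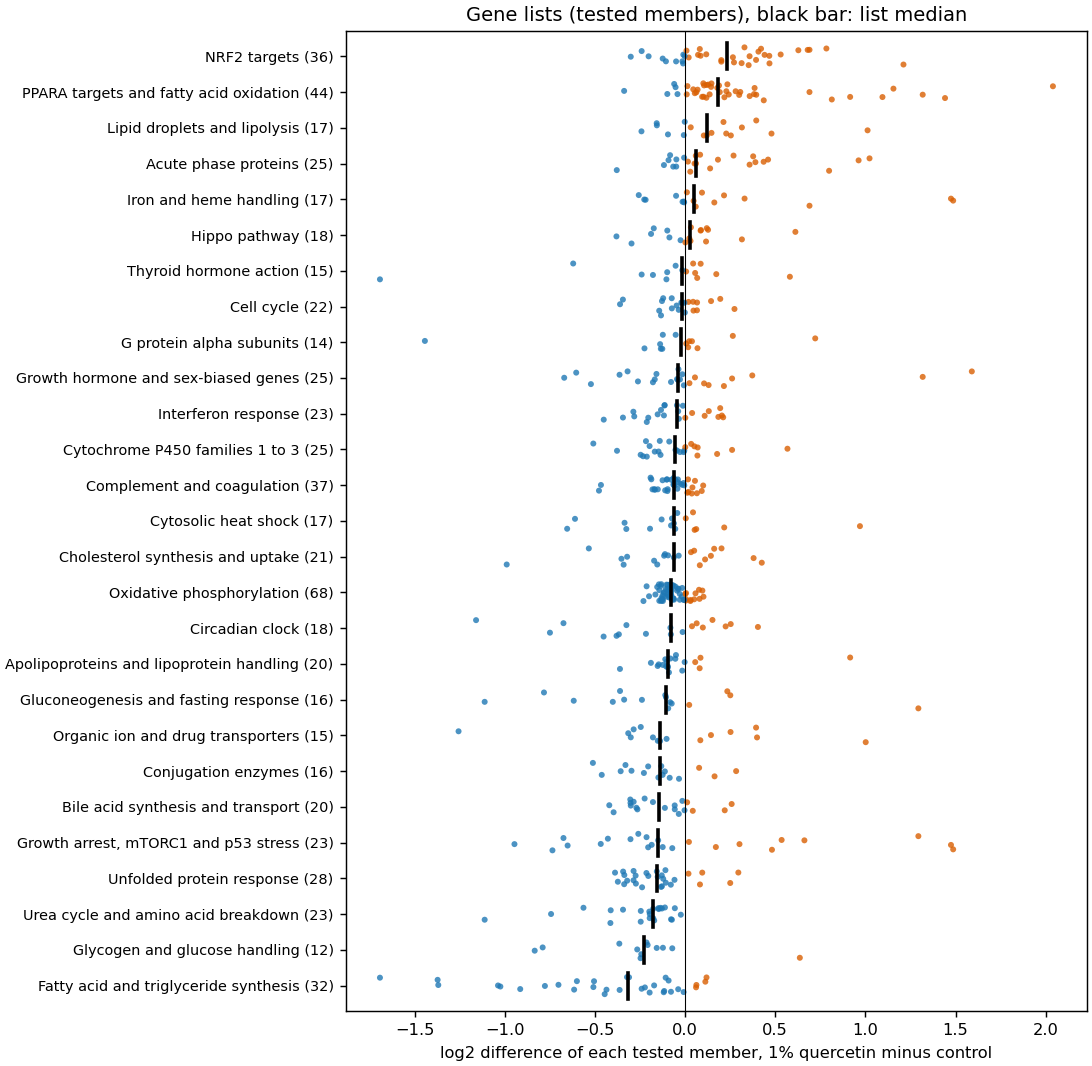
Each point is the log2 difference, 1% minus control, of 1 tested member of a gene list (number of tested members in parentheses); orange is above 0, blue below, and the black bar is the list median. The lists run from the lipogenic genes at -0.32 to the NRF2 targets at 0.23.

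In bile acid synthesis and transport, 16 of 20 genes were below 0 (2 lower and 0 higher at an unadjusted p under 0.05), with a median of -0.15 and of -0.088 without 1% replicate 1. Abcg5, a subunit of the sterol exporter to bile, measured 8.69 to 9.48 (median 8.90) in controls and 8.25 to 9.004 (median 8.53) at 1%, with 5 of 6 below all controls (-0.42 ± 0.14). Its partner Abcg8 differed by -0.30 ± 0.16. Slco1b2, an uptake carrier for bile acids and drugs, differed by -0.29 ± 0.087 with 5 of 6 below all controls, but its other 4 probe sets gave 0.063, 0.041, -0.14 and 0.11. Abcb4, the phospholipid floppase of the canaliculus, differed by 0.22 ± 0.11, and Cyp7a1, which catalyses the slow first step from cholesterol to bile acids, by 0.26 ± 0.38, from 0.041 to 0.51 with 1 array left out, the lowest without 1% replicate 1.

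Cholesterol synthesis and uptake genes showed no common side: 9 of 21 were above 0 and 12 below. At an unadjusted p under 0.05, 1 was lower (background 4.66%). The median of -0.062 ranged from -0.088 to 0.015 when any 1 array was left out. Mvd, the mevalonate diphosphate decarboxylase, measured 6.36 to 7.79 (median 7.21) in controls and 5.13 to 7.18 (median 6.01) at 1%, with 4 of 6 below all controls (-0.99 ± 0.30, adjusted p = 0.408; -0.43 in its other probe set). Cyp51, a later enzyme of the same pathway, differed by 0.38 ± 0.18, with 4 of 6 above all controls, and the SREBP regulator Insig1 by -0.53 ± 0.27. Sc5d, a late desaturase of cholesterol synthesis, differed by -0.34 ± 0.20 and by -0.36 and -0.75 in its other 2 probe sets. Apolipoproteins and lipoprotein genes were below 0 in 16 of 20, 1 (Angptl4) was higher at an unadjusted p under 0.05, and the median was -0.093, or -0.021 after quantile normalization. Apof differed by -0.12 ± 0.069, Apoc4 by -0.11 ± 0.066 and the HDL receptor Scarb1 by -0.19 ± 0.12, with -0.082 and -0.034 from the other Scarb1 probe sets and -0.12 without 1% replicate 1.

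Of the genes that conjugate or move foreign compounds, the conjugation enzymes were mostly below 0. Of 16 conjugation enzymes, 13 were below 0, with 4 lower and 0 higher genes at an unadjusted p under 0.05, with a median of -0.14. Ugt2b1, a glucuronosyltransferase, measured 12.15 to 12.47 (median 12.33) in controls and 11.80 to 12.10 (median 11.95) at 1%, without overlap (-0.36 ± 0.11, adjusted p = 0.408). The sulfotransferases Sult1d1, Sult5a1 and Sult2a8 differed by -0.51 ± 0.18, -0.46 ± 0.19 and -0.23 ± 0.11. Among 15 organic ion and drug transporters, 9 were below 0 (background 51.7%), with 2 higher and 3 lower at an unadjusted p under 0.05. Their median was -0.14 (-0.090 without control replicate 1, -0.088 without 1% replicate 6). Beside Slc22a5 and Slc22a7, the prostaglandin carrier Slco2a1 differed by 0.40 ± 0.15, with 0.16, 0.27 and 0.19 in its other 3 probe sets.

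The cytochrome P450 genes of families 1 to 3, which include the targets of AHR, CAR and PXR, held 0 genes of 25 at an unadjusted p under 0.05. Their median was -0.053, or -0.0097 after quantile normalization, with 8 above 0, and ran from -0.10 without 1% replicate 3 to 0.0036 without 1% replicate 4. Cyp1a1, the AHR marker, measured 4.42 to 5.45 (median 5.03) in controls and 4.70 to 5.39 (median 5.11) at 1%, and the ranges overlapped fully (0.068 ± 0.16, adjusted p = 0.943). Cyp1a2 differed by -0.0043 ± 0.16, with 0.017 after quantile normalization, Cyp2b10, the CAR marker, by 0.052 ± 0.32, and Cyp3a11, the PXR marker, by 0.070 ± 0.092. With 1 array left out, Cyp1a1 ran from -0.048 to 0.16, Cyp1a2 from -0.090 to 0.089 and Cyp2b10 from -0.062 to 0.37, while Cyp3a11 lay between -0.00025 and 0.11. The smallest p in the list belonged to Cyp3a44 (0.26 ± 0.13), then Cyp2d26 (-0.14 ± 0.076), Cyp2c70 (-0.51 ± 0.28) and Cyp3a25 (-0.21 ± 0.12, or -0.13 without control replicate 3).

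Subunits of oxidative phosphorylation lay slightly below 0 in 56 of 68. At an unadjusted p under 0.05, 5 were lower (background 4.66%) and 0 higher (3.87%). Their median of -0.078 was -0.13 as deposited and -0.045 after quantile normalization, so its size turned on the scaling. Atp5h, a stalk subunit of ATP synthase, measured 12.61 to 12.73 (median 12.70) in controls and 12.43 to 12.59 (median 12.52) at 1%, without overlap (-0.15 ± 0.063, adjusted p = 0.516), but its other probe set gave -0.022. Ndufc2 and Ndufb3 of complex I and Sdha of complex II differed by -0.20 ± 0.066, -0.21 ± 0.091 and -0.16 ± 0.070. Other probe sets gave -0.16, 0.10 and -0.072 for Ndufc2 and -0.012 and -0.28 for Sdha.

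Unfolded protein response genes were below 0 in 23 of 28, with a median of -0.15, or -0.099 without 1% replicate 4. At an unadjusted p under 0.05, 2 were lower (background 4.66%) and 0 higher (3.87%). Derl2, of ER-associated degradation, differed by -0.24 ± 0.099, the transcription factor Atf4 by -0.27 ± 0.12, the degradation adaptor Sel1l by -0.37 ± 0.18 and the mannosidase-like Edem1 by -0.34 ± 0.17; the other 4 probe sets of Sel1l gave -0.073, -0.33, -0.16 and -0.11. Cytosolic heat shock genes had 11 of 17 below 0 and a median of -0.062, which ranged from -0.15 without 1% replicate 1 to 0.039 without 1% replicate 4. Hspb1, a small heat shock protein, measured 9.95 to 11.16 (median 11.01) in controls and 10.85 to 12.44 (median 11.73) at 1%, with 5 of 6 above all controls (0.97 ± 0.37, adjusted p = 0.487). At 0.05% it differed from the controls by -0.18. Dnajb1, a co-chaperone, differed by -0.65 ± 0.52 (-0.078 in its other probe set, and -0.42 without control replicate 1 and -0.28 without control replicate 2), Hspa8 by -0.34 ± 0.23 (-0.15, -0.21 and 0.25 in its other 3 probe sets, and -0.20 without 1% replicate 6) and Cryab by -0.19 ± 0.14 (-0.13 without 1% replicate 1 and -0.10 without 1% replicate 4).

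Complement and coagulation genes, secreted by hepatocytes, were below 0 in 28 of 37 (4 lower and 0 higher at an unadjusted p under 0.05), with a median of -0.061, or -0.025 after quantile normalization and -0.11 as deposited, and from -0.10 to -0.026 with 1 array left out. Masp1, a protease of the lectin pathway, measured 9.92 to 10.56 (median 10.10) in controls and 9.32 to 9.96 (median 9.70) at 1%, with 5 of 6 below all controls (-0.48 ± 0.12, adjusted p = 0.315). The other 4 Masp1 probe sets gave -0.27, -0.18, -0.17 and -0.093. C1s1 of the classical pathway differed by -0.18 ± 0.077, the thrombin inhibitor Serpind1 by -0.19 ± 0.086 and coagulation factor F11 by -0.47 ± 0.22. Acute phase genes held 0 of 25 at an unadjusted p under 0.05 and spread widely between mice: the list mean lay between -0.97 and 0.86 in controls and between -0.39 and 0.81 at 1%. Their median of 0.061 ranged from -0.046 without control replicate 3 to 0.28 without control replicate 4. Socs3, a feedback inhibitor of cytokine signalling, differed by 1.02 ± 0.64 (0.59 without control replicate 2) and the receptor Il1r1 by 0.96 ± 0.51. Stat3 differed by 0.39 ± 0.29, with -0.23, 0.16 and 0.40 in its other 3 probe sets and 0.22 without control replicate 1. Il6ra differed by 0.46 ± 0.34, with 0.060 from its other probe set, and was 0.22 without control replicate 1 and 0.16 without 1% replicate 1. Interferon response genes held 0 of 23 at that p, with 15 below 0 and a median of -0.045 that ran from -0.11 to -0.0054 with 1 array left out (-0.077 without 1% replicate 1). Cxcl10, Oasl1, Psmb8 and Gbp3 had the smallest p and differed by -0.45 (-0.26 without control replicate 2), -0.34 (-0.22 without control replicate 2), -0.29 and -0.28 (-0.18 without control replicate 3).

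Clock genes had 11 of 18 below 0 and 4 lower at an unadjusted p under 0.05, with a median of -0.080 that ranged from -0.18 to 0.035 with 1 array left out. Per1 and Per2, the period genes of the negative limb, differed by -0.67 ± 0.23 and -0.75 ± 0.35. Noct differed by -1.16 ± 0.46 and the clock output factor Hlf by -0.33 ± 0.15 (-0.19 without control replicate 2). Per2 was -0.27 and -0.48 in its other 2 probe sets and -0.49 without control replicate 2. Among growth hormone and sex-biased genes, 16 of 25 were below 0, with 2 higher and 2 lower at that p and a median of -0.037 that ran from -0.060 to -0.00081 with 1 array left out. Socs2, a feedback target of growth hormone, measured 5.65 to 10.39 (median 8.76) in controls and 8.51 to 11.26 (median 10.13) at 1% (1.59 ± 0.76, adjusted p = 0.583), or 1.02 without control replicate 2, and its other 4 probe sets gave 1.67, 0.18, 0.055 and 0.37. Bcl6, a repressor of STAT5 targets, differed by -0.52 ± 0.24 from the controls (-0.33 without 1% replicate 1). Igfals, a carrier of circulating IGF1, differed by -0.36 ± 0.14, and Fmo2 by 0.37 ± 0.15 (0.25 without 1% replicate 3).

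Growth arrest, mTORC1 and p53 stress genes were below 0 in 14 of 23 (5 lower and 1 higher at an unadjusted p under 0.05), with a median of -0.15, or -0.092 without 1% replicate 1. Ddit4, a stress-induced inhibitor of mTORC1, measured 7.04 to 8.46 (median 7.90) in controls and 6.36 to 7.49 (median 6.75) at 1%, with 4 of 6 below all controls (-0.95 ± 0.26, adjusted p = 0.317). Sesn3, another inhibitor of mTORC1, differed by -0.43 ± 0.14 with 5 of 6 below. Cell cycle genes had 14 of 22 below 0 and 1 lower at that p (background 4.66%). Their median of -0.019 ranged from -0.093 to 0.032 with 1 array left out. Aurka, a mitotic kinase, differed by -0.36 ± 0.15, and Foxm1, Ccna2 and Kif20a by -0.34, 0.27 and 0.14. With single arrays left out, Ccna2 was 0.096 without control replicate 6 and 0.17 without 1% replicate 4, and Kif20a ran from 0.050 to 0.22. The other Ccna2 probe set gave -0.033, and Foxm1 was -0.52 without control replicate 2.

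Among thyroid hormone genes, 8 of 15 were below 0, and 2 of these, Thrsp and Dio1, had an unadjusted p under 0.05, with a list median of -0.015 that ran from -0.039 to 0.032 with 1 array left out. Dio1, the deiodinase that activates thyroid hormone in liver, measured 10.28 to 10.73 (median 10.55) in controls and 9.66 to 10.31 (median 9.84) at 1%, with 5 of 6 below all controls (-0.62 ± 0.17, adjusted p = 0.317). Serpina7, a thyroxine carrier, differed by 0.58 ± 0.38, and Slco1a1, an uptake carrier, by -0.18 ± 0.15 (-0.090 without control replicate 1). Of 14 G protein alpha subunits, 7 were above 0 and 7 below, with a median of -0.023 (0.0077 with no filter, -0.063 to 0.026 with 1 array left out). Beside Gna14, the inhibitory subunit Gnai1 measured 6.35 to 7.09 (median 6.88) and 6.87 to 8.34 (median 7.55), with 4 of 6 above all controls (0.72 ± 0.21, adjusted p = 0.370), and its other 2 probe sets gave 0.14 and 0.50. Gna11, another Gq-class subunit, differed by -0.14 ± 0.076 (0.0058 in its other probe set) and Gnao1 by 0.26 ± 0.19 (-0.10 in its other probe set, 0.15 without control replicate 6). Of 18 Hippo pathway genes, 11 were above 0, with a median of 0.027 (-0.024 as deposited, -0.019 to 0.052 with 1 array left out), and Tead1 was the 1 called. Its paralog Tead3 differed by -0.38 ± 0.19, the upstream regulator Nf2 by -0.17 ± 0.081 (-0.13, -0.081 and 0.023 in its other 3 probe sets) and the TEAD cofactor Vgll4 by -0.30 ± 0.17 (-0.14 without 1% replicate 6). Iron and heme genes had 10 of 17 above 0 and a median of 0.047 (-0.0037 as deposited, 0.024 to 0.093 with 1 array left out). The 1 lower at that p (background 4.66%) was the heme synthesis enzyme Ppox (-0.22 ± 0.096). Its pathway neighbours Uros and Cpox differed by -0.26 ± 0.13 and -0.23 ± 0.15, with 0.19 from another Uros probe set and -0.12 and 0.023 from those of Cpox, which was -0.13 without 1% replicate 1 and -0.15 without 1% replicate 5. The metallothioneins Mt1 and Mt2, singled out for their size, differed by 1.49 ± 1.44 and 1.47 ± 1.51, within the spread of the mice.

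No marker of a cell type passed the adjusted threshold. Hepatocyte markers were below 0 in 9 of 11, with 1 lower at an unadjusted p under 0.05 (Tat), a median of -0.096 and list means of -0.029 to 0.15 in controls and -0.33 to -0.0047 at 1%, the lowest in 1% replicate 4. Their median was -0.044 without that replicate and -0.031 after quantile normalization, with 5 genes above 0 and 6 below. On the values as deposited it was -0.15, with 0 above 0 and 11 below. Before the median shift, the array of 1% replicate 4 had the highest median of all arrays (7.24). Its shift of -0.256 was the largest downward one. Whether the shift bears on the lower markers of that mouse was not tested. Cps1, Asgr2 and Cyp2e1 had the next smallest p and differed by -0.15 (-0.094 without 1% replicate 4), -0.27 and -0.14. The labelled tissue showed in their level, with Cyp2e1 between 13.35 and 13.73 over the 12 mice. Whether their lower level bears on the lower metabolic lists was not tested.

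Endothelial markers were above 0 in 13 of 19 (2 higher at an unadjusted p under 0.05, median 0.041, -0.010 as deposited). Clec4g of the sinusoids differed by 0.28 ± 0.10, Egfl7 by 0.29 ± 0.11 (its other 3 probe sets gave -0.16, -0.037 and -0.14), Eng by -0.17 ± 0.091 (-0.011 in its other probe set) and Kdr by 0.14 ± 0.092. Kupffer cell and macrophage markers were split 7 to 7 with 0 at that p, a median of -0.0010 and list means of -0.39 to 0.52 in controls and -0.35 to 0.31 at 1%; Cd68, Cd14 and Marco differed by 0.23, 0.56 (0.35 without control replicate 3 and 0.35 without 1% replicate 6) and 0.52 (0.18 in its other probe set). Neutrophil markers had 2 of 9 lower at that p, Elane (-0.44 ± 0.17) and Il1b (-0.44 ± 0.18), and a median of 0.041 (-0.011 as deposited). Lymphocyte markers had 1 higher, Cd3d (0.38 ± 0.17), and 1 lower, Ighm (-1.31 ± 0.56), of 10, with a median of -0.015; the other Ighm probe sets ran from -0.75 to 0.20. Stellate cell and fibroblast markers were split 8 to 8 around a median of -0.014, with Des (-0.42 ± 0.19) and Lum (-0.26 ± 0.12, or -0.16 without 1% replicate 5) lower at that p. The medians of these 5 lists turned sign when certain single arrays were left out. Markers of cholangiocytes, red blood cells, adipocytes and pancreas or gut had 6, 4, 4 and 3 tested genes and medians of 0.15, -0.13, -0.30 and 0.055. With 1 array left out these ran from 0.079 to 0.22, -0.26 to -0.060, -0.40 to -0.11 and -0.081 to 0.094. Of these genes only Cela1 passed an unadjusted p of 0.05, at -0.58 ± 0.21.

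The 2 quercetin groups share the control arrays, so their differences from control are given side by side. At 0.05%, limma called 0 of 12885 genes, with 656 (5.09%) at an unadjusted p under 0.05. Between 1% and 0.05%, it also called 0, with 1098 (8.52%) at that p. The fatty acid oxidation list had medians of 0.18 at 1% and 0.12 at 0.05%, and the lipogenic list -0.32 and -0.072. The urea and amino acid list stood at -0.18 and -0.050, and the NRF2 list at 0.23 and 0.14. Without 1% replicate 1 the NRF2 median at 1% was 0.060, below the 0.14 at 0.05%. The heat shock list stood at -0.062 at 1% and -0.31 at 0.05%, where all 17 genes were below 0, and the acute phase list at 0.061 and -0.30. Ppara differed by -0.77 between 1% and 0.05% (adjusted p = 0.297), Bcl6 by -1.42 (adjusted p = 0.0885) and Ass1 by -1.17 (adjusted p = 0.297), and none of these passed the threshold. These 3 dose differences were chosen after their values were seen. Of the genes described above, Gna14 stood at -1.44 and -1.02, Zdhhc2 at 0.78 and 0.43, Lpin1 at -1.37 and -1.06, and Fasn at -1.37 and -0.38. Cyp39a1 stood at 0.85 and 0.23, and Slc22a5 at 1.00 and 0.46. Magef1, also among the higher genes with the smallest p, stood at 0.30 at 1% and 0.32 at 0.05%. All of these genes but Fasn were named for their small p at 1% against control. That choice favors larger differences at 1% than at 0.05%, so their values cannot show whether the differences follow the dose.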

How the data were processed

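Liver RNA of 18 mice was measured on Affymetrix mouse arrays, with biotin-labelled aRNA from a 3′ IVT kit per the labels. The authors deposited linear signal intensity for 45101 probe sets, from 0.0118 to 18108; the software and scaling were not given in the sources used here, and array medians ran from 14.2 to 22.0. Control probe sets (64) were left out. Of the rest, 34945 carried 1 gene symbol and were used, 932 carried several and 9160 none; 34741 matched GRCm38.p6 by Entrez number.

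Here 16 was added, log2 taken, genes kept whose probe set mean passed the 40th percentile (4.69), and each array shifted to a common median. The brightest probe set stood for each of 12885 genes. limma 3.58.1 (R 4.3.3) fitted 3 diet means over 18 arrays (15 residual degrees of freedom), with Benjamini-Hochberg adjustment and a threshold of 0.05. The script was tested on simulated data.

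Members and the 37 gene lists were chosen with earlier results of these data known. Named genes are those past the threshold, the 15 smallest p in each direction, up to 4 per list and a preset group; others are said to be chosen after their values were seen. Some preset genes are not reported here. Other probe sets are given where any differs in sign or by over 2 times from the chosen one. The labels do not say that replicate numbers pair mice, so the main fit used no pairing. Alternatives changed the scaling, filter, added value, probe set rule, weights, arrays in the fit and block, and left out each array.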

Additional observations from a re-analysis of the deposited data

Results flagged for a closer look

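In groups of 6 mice, 1 mouse lay far from the other 5 in 25 of 398 groups examined (6.28%), and chance marks about 1 in 20. At 1%, replicate 1 measured 8.45 for Ap3m1 (others 8.70 to 8.84), 10.95 for Hmox1, 11.53 for Txnrd1 (9.77 to 10.19), 12.70 for Srxn1, 8.42 for Gadd45b (5.67 to 6.60), 9.49 for Il6ra (7.33 to 8.07) and 9.997 for Pck1. Its mean deviation over the NRF2 targets was 0.81. The array of this mouse had the largest upward median shift of the 12 arrays compared (0.262). Whether that shift bears on its values was not tested.

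Replicate 4 at 1% had mean deviations of -0.52 over the clock genes (others -0.071 to 0.058), 0.34 over the cell cycle genes (-0.19 to -0.0010) and -0.33 over the hepatocyte markers (-0.075 to -0.0047). It also measured 12.45 for Apof and 12.82 for Cps1, where the others lay at 12.58 to 12.65 and 13.09 to 13.20. The array of this mouse had the largest downward median shift of all arrays (-0.256). Whether that shift bears on its low values was not tested. Replicate 3 at 1% measured 8.52 for Srebf1 (9.26 to 9.67) and 4.75 for Cyp3a44 (5.28 to 5.45). Replicate 6 measured 5.45 for Hilpda (6.03 to 6.28) and 6.99 for Nf2 (6.54 to 6.68).

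Among the controls, replicate 3 had a mean deviation of 0.49 over the PPARA targets (others -0.39 to -0.21) and measured 6.25 for Cyp2b10 (4.09 to 4.82) and 5.95 for Il1b (6.92 to 7.24). Replicate 4 measured 11.80 for Pygl (12.30 to 12.58) and 10.15 for Ndufb3 (10.43 to 10.54). Replicate 5 measured 6.67 for Vgll4 (7.11 to 7.30). Replicate 6 measured 6.20 for Cryab (6.42 to 6.54), and its mean deviation over the gluconeogenesis genes was -0.28 (0.081 to 0.24). The part of these single mice in the results was tested only by leaving each out.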

How the results depend on the processing

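Genes called by limma numbered 1 in the fit as reported. The number was 0 on the values as deposited, 0 with no filter, 0 with the mean of probe sets and 0 with only the 12 arrays, and 4 at an adjusted p under 0.10. With 1 array left out it ranged from 0 to 3. Tead1 was the 1 gene called after quantile normalization, the 60th percentile filter, 1 or 64 added before log2, eBayes with trend and robust, and array weights. The values as deposited gave 715 genes at an unadjusted p under 0.05 and 20 whose groups did not overlap. In the labels, mice with the same replicate number share only that number. They correlated at -0.0598 to 0.227, and 2 of 6 controls correlated best with their own number. These values cannot tell whether the numbers pair mice. With the replicate block 1 gene was called, Osgin1 (adjusted p = 0.0374), and not Tead1 (adjusted p = 0.0844). Of 851 list medians under alternatives, 788 kept their sign. Part of these could not change: eBayes with trend and robust, only the 12 arrays and the replicate block leave every difference as it was. Their moves were set against the SD of the list mean between mice, averaged over the controls and 1%. The medians that moved by over 1 such SD were the apolipoprotein list after quantile normalization (-0.021) and adipocyte markers with no filter (-0.0061). Lymphocyte and pancreas or gut markers did so under the 60th percentile filter (-0.77 and -0.23). An outlying mouse widens this SD. The NRF2 median, 0.23 as reported and 0.060 without 1% replicate 1, did not count as moved. Dim genes lie near the added value, so their differences are compressed, and the cause of the lost calls was not tested.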
